A study of Mus musculus with 8 samples.

Results

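The genes described here are 10 components of the bone morphogenetic protein (BMP) and transforming growth factor beta (TGF-beta) pathways: the receptor genes Bmpr1a, Bmpr2, Acvr1, Tgfbr1, Tgfbr2 and Tgfbr3, the SMAD genes Smad1, Smad3 and Smad7, and the ligand gene Tgfb1. They were taken as every probe set that the platform annotation assigns to 1 of these symbols, which gave 30 probe sets of 45101 on the array, or 10 genes of 18194. All 10 matched a RefSeq gene by symbol and Entrez identifier. The genes were selected on their place in these pathways, with the measured log2 differences between the integrin alpha4-high and alpha4-low expansions already known, and that contrast is described for them without a test.

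The study profiled age-associated clonal expansions, populations of CD8 memory T cells that come from a single precursor and accumulate in old mice, beside polyclonal CD8 memory T cells of the same animal. RNA of 4 expansions and 4 polyclonal partners from 4 female mice was measured, each sample on its own Affymetrix Mouse Genome 430 2.0 array. Age was 20 months for the first 2 mice and 23 months for the other 2, and the strain was C57BL/10SnJ except for mouse 4, a B10.BR animal. CD8+ CD122+ MHC II- cells of spleen and lymph nodes were sorted on the V beta chain of the T cell receptor: positive cells are the expansion, and cells without it are the polyclonal partner, what remained of the same memory compartment. Expansion 1 is the only member of the alpha4-high subclass, and expansions 2, 3 and 4 form the alpha4-low subclass. Each expansion is 1 clone of 1 animal, and no young mice and no treatment enter the comparison. Sort purity was 91% for expansion 1, 95 to 98% for the alpha4-low expansions and 97, 75, 66 and 97% for polyclonal samples 1 to 4. Median signal per array was between 46.5 and 75.1, and 22085 to 30533 probe sets lay above background, which is the 95th percentile of 27 bacterial control probe sets on each array and was between 33.7 and 61.9. Of 9 CD8 T cell marker genes on the array, 9 were above background on all 8 arrays.

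BMP and TGF-beta ligands bind a complex of type I and type II serine/threonine kinase receptors. The type I receptor then phosphorylates receptor-regulated SMADs, SMAD1, SMAD5 and SMAD9 in the BMP branch and SMAD2 and SMAD3 in the TGF-beta branch, which enter the nucleus with SMAD4. The inhibitory SMADs, SMAD6 and SMAD7, are induced by the pathway and restrain it. In CD8 T cells TGF-beta is known for limiting effector differentiation and the expression of cytotoxic genes and for promoting residence in tissues.

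The promoters of 4 of the genes are shown because Bmpr1a and Smad1, with the lowest log2 differences of the 10 genes in pair 1, can be read beside Tgfbr2 and Smad3, which were bright on every array and had smaller differences there. Each is the 250 bases before the gene's start in RefSeq on build GRCm38.p6, on the minus strand and written 5′ to 3′: chr14:34502547-34502796 for Bmpr1a, chr8:79399429-79399678 for Smad1, chr9:116175364-116175613 for Tgfbr2 and chr9:63757995-63758244 for Smad3. Capitals mark GC boxes (GGGCGG) and CCAAT boxes (CCAAT) on either strand.
Bmpr1a: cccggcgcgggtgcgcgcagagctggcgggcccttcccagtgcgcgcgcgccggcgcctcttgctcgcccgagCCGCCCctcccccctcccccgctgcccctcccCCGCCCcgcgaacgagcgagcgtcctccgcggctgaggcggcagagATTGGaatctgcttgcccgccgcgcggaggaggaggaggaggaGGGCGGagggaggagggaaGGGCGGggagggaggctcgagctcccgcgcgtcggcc
Smad1: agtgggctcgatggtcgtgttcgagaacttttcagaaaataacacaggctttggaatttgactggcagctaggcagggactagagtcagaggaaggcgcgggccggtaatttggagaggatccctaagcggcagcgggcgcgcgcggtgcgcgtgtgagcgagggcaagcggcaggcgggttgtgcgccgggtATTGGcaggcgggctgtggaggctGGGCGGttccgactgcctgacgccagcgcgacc
Tgfbr2: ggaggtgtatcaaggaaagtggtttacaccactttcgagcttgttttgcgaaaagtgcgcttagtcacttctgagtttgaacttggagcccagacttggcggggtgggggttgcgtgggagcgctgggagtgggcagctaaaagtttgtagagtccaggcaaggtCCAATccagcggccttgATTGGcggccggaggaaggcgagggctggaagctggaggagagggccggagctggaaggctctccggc
Smad3: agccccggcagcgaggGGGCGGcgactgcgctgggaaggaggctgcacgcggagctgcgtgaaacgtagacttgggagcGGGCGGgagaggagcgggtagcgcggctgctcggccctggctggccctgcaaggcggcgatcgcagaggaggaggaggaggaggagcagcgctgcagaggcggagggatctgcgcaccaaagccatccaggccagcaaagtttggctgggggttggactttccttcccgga

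The Bmpr1a window held 36 CpG dinucleotides, 78.8% G and C, 4 GC boxes and 1 CCAAT box. The Smad1 window held 25 CpG dinucleotides, 63.6% G and C, 1 GC box and 1 CCAAT box. Tgfbr2 had 12 CpG dinucleotides and 2 CCAAT boxes without a GC box, and Smad3 had 22 CpG dinucleotides and 2 GC boxes without a CCAAT box. Over all 32851 promoters of the same length the median was 6 CpG dinucleotides and 52.4% G and C, 32.7% held a GC box and 33.8% a CCAAT box. The GC-rich element GGCGCC occurred 1 time in Bmpr1a and in none of the other 3 windows, against 9.59% of all promoters. Neither the E-box CACGTG (6.02% of all promoters) nor the palindrome GTCTAGAC (0.167%) was found in these 4 windows. A match describes letters in the window and does not identify a bound site, and the arrays did not measure binding or methylation.

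Bmpr1a, which encodes the type I BMP receptor ALK3, and Smad1, which encodes a SMAD that this receptor phosphorylates, were far lower in the alpha4-high expansion than on any other array. The brightest Bmpr1a probe set read 61.1 in expansion 1 and 3104 in its polyclonal partner, 50.8-fold less. The value of 61.1 lies near the background of that array, 46.6, so the size of this fold is not exact. The brightest Smad1 probe set read 696 and 7324, 10.5-fold less. In the alpha4-low pairs neither gene passed the test. Values are MAS5 signals, linear intensities on arrays scaled to a common trimmed mean, and differences are expansion minus polyclonal of the same mouse on the scale log2(signal + 5).

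Across the other 7 arrays Bmpr1a (probe set 1425492_at) read 4370, 1248 and 3221 in expansions 2, 3 and 4 and 3104, 1581, 1773 and 2443 in polyclonal samples 1 to 4. The alpha4-low expansions and the polyclonal samples overlapped, and expansion 1 lay 20.4-fold below the lowest of the other 7. Its log2 difference was -5.56 in pair 1 and 1.46, -0.51 and 0.40 in pairs 2, 3 and 4, the latter with a mean of 0.45 ± 0.99 (SD, n = 3). The mean of the alpha4-low pairs minus pair 1 was 6.01. With the probe sets of the gene averaged in place of the brightest it was 3.90. The difference in pair 1 was the 4th lowest among 22518 tested probe sets, a probe set being tested where its mean log2 value exceeded the median of all probe sets. In the test of the alpha4-low pairs the Bmpr1a difference of 0.45 had an SE of 0.46 (limma adjusted p = 0.989).

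Bmpr1a had 6 probe sets, of which 5 were tested. A further 3, all dimmer, repeated the order of the arrays in pair 1, and in expansion 1 they were below background. Probe set 1425494_s_at read 25.3 in expansion 1 and 373 in its partner, at least 8-fold lower when the background of expansion 1 stands in for its signal. On the same terms 1425493_at, at 21.4 and 282, was at least 6.05-fold lower, and 1451729_at, at 11 and 147, at least 3.16-fold lower. These probe sets were higher in the expansion in all 3 alpha4-low pairs. Their log2 differences there were 2.05, 1.08 and 0.45 for 1425494_s_at, 2.02, 0.97 and 0.42 for 1425493_at, and 0.79, 0.86 and 0.06 for 1451729_at. Unadjusted p was 0.0195, 0.0274 and 0.225, and after adjustment over all probe sets tested none passed (limma adjusted p = 0.908, 0.939 and 0.989). Probe set 1425491_at was also lower in expansion 1 than in its partner, at 49.4 against 106, a log2 difference of -1.03. It departed from the others in expansion 3, where it read 8.11. It read 105 to 176 on the other 6 arrays, and its alpha4-low mean minus pair 1 was only 0.24. The untested 1445413_at was above background on 1 array. The probe sets of Bmpr1a thus disagreed in expansion 3, where 4 tested probe sets were well above background and 1425491_at was below it.

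Smad1 (1448208_at) read 5021, 4139 and 6998 in expansions 2, 3 and 4 and 7324, 3413, 3692 and 6799 in polyclonal samples 1 to 4. The lowest of these 7 arrays was 4.90-fold above expansion 1. Pair 1 gave a log2 difference of -3.39, and pairs 2 to 4 gave 0.56, 0.16 and 0.04, a mean of 0.25 ± 0.27 (SD, n = 3; limma adjusted p = 0.993). The alpha4-low mean minus pair 1 was 3.64. The second tested probe set, 1459843_s_at, read 291 in expansion 1 and 2738 in its partner, 9.41-fold less, against 1517 to 3890 on the other arrays. Its differences in pairs 2 to 4 were 0.24, 1.34 and 0.40 (limma adjusted p = 0.98). The 2 tested Smad1 probe sets thus gave close pair 1 differences, -3.39 and -3.21. A further probe set, 1416081_at, was above background on no array and was not tested.

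**Figure D1:**
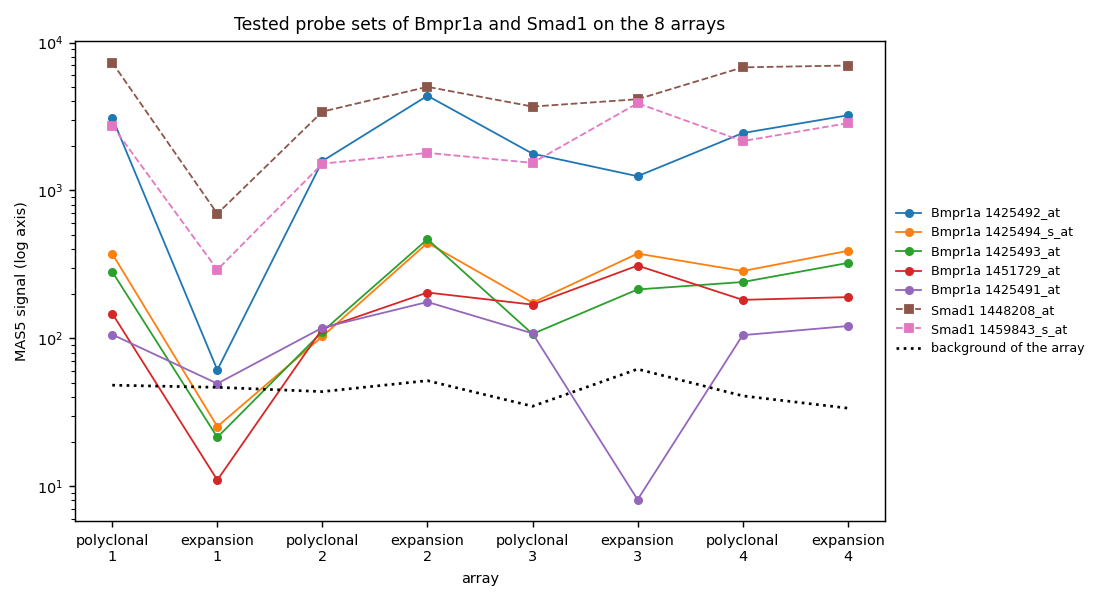
MAS5 signal (log axis) of the tested probe sets of Bmpr1a (solid lines, circles) and Smad1 (dashed lines, squares) on each of the 8 arrays; lines join the points of 1 probe set and the dotted line is the background of each array. Expansion 1 is the lowest array for 4 of the 5 Bmpr1a probe sets and for both of Smad1, and the fifth Bmpr1a probe set, 1425491_at, is lowest in expansion 3 at 8.11.

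The other receptor genes did not stand apart to that degree. Bmpr2, the type II BMP receptor that partners ALK3, read 411 in expansion 1, 893, 257 and 514 in expansions 2 to 4 and 487 to 657 in the polyclonal samples. Expansion 1 lay among the alpha4-low expansions and below the polyclonal range. Its log2 difference was -0.37 in pair 1 and -0.20 ± 0.80 (SD, n = 3) in the alpha4-low pairs (limma adjusted p = 0.996). Acvr1, the type I receptor ALK2, was dim: 18 in expansion 1, 152, 61.8 and 110.1 in expansions 2 to 4 and 42.5, 20.5, 84.7 and 53.6 in polyclonal samples 1 to 4, with 4 of 8 arrays above background. Expansion 1 and its partner were both below background, so the difference of -1.05 in pair 1 gives no fold. With signals under background raised to it, that difference was -0.04.

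Tgfbr1, the type I TGF-beta receptor ALK5, read 1281 in expansion 1 and 2488 in its partner. In pairs 2 to 4 the expansion and its partner read 2906 and 1364, 1068 and 2368, and 2980 and 2851. Expansion 1 was 1.94-fold below its partner, yet expansion 3 was lower still, and the alpha4-low pairs went in both directions (0.00 ± 1.12, SD, n = 3; limma adjusted p = 1). Tgfbr2, the ligand-binding type II receptor, was the most even of the receptors, from 4918 in expansion 3 to 10733 in polyclonal sample 1. It read 9367 in expansion 1, a log2 difference of -0.20 in pair 1 against -0.18 ± 0.55 (SD, n = 3) in the alpha4-low pairs (limma adjusted p = 0.996). Its alpha4-low mean minus pair 1 was 0.02. A dimmer Tgfbr2 probe set, 1425444_a_at, gave 0.12 in pair 1 and -1.55, -0.50 and -0.01 in pairs 2 to 4 (limma adjusted p = 0.989).

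Tgfbr3, the co-receptor betaglycan, which presents ligand to the signalling receptors, read 199, 196, 323 and 309 in expansions 1 to 4 and 409, 313, 518 and 264 in their partners. It was lower in the expansion in pairs 1, 2 and 3, at -1.02, -0.66 and -0.67, and higher in pair 4, at 0.22. Expansions 1 and 2 were alike, and the expansions overlapped the polyclonal samples (alpha4-low mean -0.37 ± 0.51, SD, n = 3; limma adjusted p = 0.989). Untested, dimmer probe sets of the receptor genes other than Bmpr1a went in both directions in pair 1. They ranged from -2.33 for Acvr1 1416786_at, above background on 0 arrays, to 2.89 for Tgfbr2 1422019_at. The latter read 80.4 in expansion 1 and 6.56, below background, in its partner. Tgfbr1 1420893_a_at read 75.8 and 7.63.

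**Figure D2:**
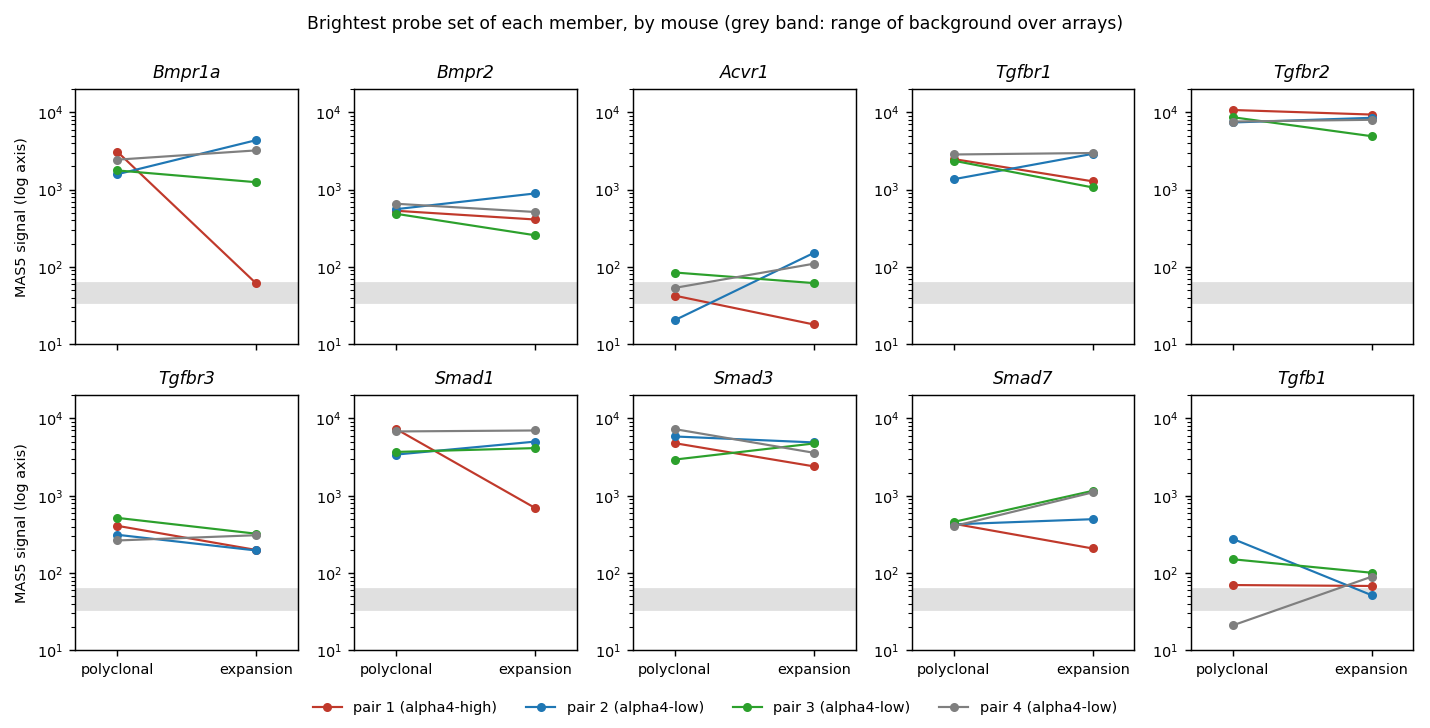
MAS5 signal (log axis) of the brightest probe set of each of the 10 genes in the polyclonal sample and the expansion of each mouse; a line joins the samples of 1 mouse, red for the alpha4-high pair and blue, green and grey for the alpha4-low pairs, and the grey band is the range of background over the 8 arrays. The red lines of Bmpr1a (3104 to 61.1) and Smad1 (7324 to 696) drop away from the rest, whereas those of Bmpr2 and Tgfbr1 end among the alpha4-low expansions and that of Tgfbr2 ends above them, at 9367.

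Smad3, the SMAD that carries the TGF-beta signal, read 2402 in expansion 1 and 4903, 4750 and 3600 in expansions 2 to 4, against 4792, 5853, 2942 and 7286 in polyclonal samples 1 to 4. Expansion 1 was the lowest of the 8 arrays and 2-fold below its partner, but pair 4 showed the same difference, -1.02 against -0.99 in pair 1. The alpha4-low mean was -0.19 ± 0.85 (SD, n = 3; limma adjusted p = 0.996). The dimmer tested probe set, 1450472_s_at, gave -0.31 in pair 1 and 0.47, 0.28 and -0.67 in the others.

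Smad7, an inhibitory SMAD that blocks type I receptors, read 208 in expansion 1 and 498, 1159 and 1107 in expansions 2 to 4. The polyclonal samples were close together, at 435, 427, 459 and 404. Every alpha4-low expansion lay above them and expansion 1 below, with log2 differences of -1.05 in pair 1 and 0.22, 1.33 and 1.44 in pairs 2 to 4. The alpha4-low mean was 0.996 ± 0.68 (SD, n = 3), with an unadjusted p of 0.0386 that did not hold after adjustment (limma adjusted p = 0.963). The second probe set, 1423389_at, repeated this only in part. It read 317, 688, 431 and 681 in expansions 1 to 4 and 418, 634, 436 and 298 in their partners, and pair 3 differed by -0.02.

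Tgfb1, the TGF-beta ligand made by many lymphocytes, was dim on most arrays and well above background in polyclonal samples 2 and 3. Its brightest probe set read 68.1, 51.8, 101 and 89.7 in expansions 1 to 4 and 70, 278, 151 and 21 in their partners, with 7 of 8 arrays above background. The polyclonal samples alone differed 13.3-fold. The log2 difference was -0.04 in pair 1 and -2.32, -0.56 and 1.87 in the others, so the subclasses could not be distinguished (alpha4-low mean -0.34 ± 2.10, SD, n = 3; limma adjusted p = 0.996).

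Of the 30 probe sets, 18 were tested and every gene had at least 1 among them; the other 12 were dimmer than the filter. In the alpha4-low pairs 0 of the 18 passed an adjusted p of 0.05 in limma, where 12 of 22518 probe sets on the array did (0.0533%). Without adjustment 3 of the 18 had a p under 0.05, 2 of Bmpr1a and 1 of Smad7, against 1150 of 22518. Over all 4 pairs, with 1 coefficient for expansion, 0 of the 18 passed in limma and 0 had an unadjusted p under 0.05; on the whole array 0 passed (0%) and 731 had such a p. These fits use the same alpha4-low arrays as the contrast that was known when the genes were chosen. Each mouse gave 1 sample of each kind, so the spread is that between animals, and for the alpha4-high subclass there is none.

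In pair 1, 5 of the 10 genes were lower by over 1 log2 unit in their brightest probe set (Bmpr1a, Acvr1, Tgfbr3, Smad1 and Smad7) and 0 were higher, with a median of -1.01. On the whole array 826 of 10407 genes (7.94%) were lower by that much, 1251 (12.0%) were higher, and the median was 0.08. With signals under background raised to it, Acvr1 left the count and 4 remained. With a pseudocount of 32 in place of 5, which damps dim probe sets, 2 of the 10 genes were lower by over 1 log2 unit, Bmpr1a and Smad1. Expansion 1 was the lowest array for 5 of the 10 genes, against 1447 of 10407 genes (13.9%). The 10 genes were chosen with this contrast known, so these counts describe them and support nothing. In pairs 2, 3 and 4 their medians were 0.39, -0.53 and 0.15, beside -0.13, 0.02 and -0.01 over all genes.

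The rest of the pathway was read from 6 lists holding 94 further genes, of which 55 were tested. In pair 1, 8 of the 55 were lower by over 1 log2 unit and 6 were higher, beside 7.94% and 12.0% of all genes tested. With signals under background raised to it 7 were lower, without Bmp7. The lists were chosen with earlier results of these data known, so these counts and those per list below describe the genes and support nothing. Of 12 other receptors and co-receptors 6 were tested and 3 were lower by that much, with a list median of -1.52. Acvr1b, the type I activin receptor ALK4, read 31.4 in expansion 1, which is below background, and 841 in its partner, at least 18-fold lower, while the other arrays lay between 469.9 and 973. Acvr2a, a type II receptor for activins and BMPs, read 149 and 1729, a log2 difference of -3.49, but in pairs 2 to 4 it ranged from -0.98 to 1.95 and expansion 3 read only 262. Eng, the co-receptor endoglin, read 17.4, below background, and 117, at least 2.51-fold lower. It was higher in the expansion in the alpha4-low pairs, at 0.95, 0.47 and 0.75 (limma adjusted p = 0.989), with polyclonal sample 2 (29.8) below background. Acvr1b, Acvr2a, Pmepa1, Ldlrad4 and Cdh1 were picked after their values had been seen.

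Among other SMADs and regulators 21 of 25 were tested, 3 were lower by over 1 log2 unit in pair 1 and 0 higher, and the median was -0.21. In their brightest probe sets Smad2, Smad4 and Smad5, which encode SMADs that share complexes with SMAD1 and SMAD3, differed by 0.46, -0.01 and -0.56 in pair 1. Their other tested probe sets disagreed with these: 1 of Smad2 differed by -0.98, 2 of Smad4 by -0.32 and by about -1, and 2 of Smad5 by 0.65 and 0.84. Pmepa1, a TGF-beta-induced membrane protein that sequesters receptor SMADs, read 66 in expansion 1 and 589 in its partner, with 277 to 937 on the other arrays. Its relative Ldlrad4 read 66.1 and 377, with 123 to 205 elsewhere. Wwp1, a ubiquitin ligase that acts on the type I TGF-beta receptor with SMAD7, read 1976 and 4804, a log2 difference of -1.28 (0.45, 0.54 and 0.05 in pairs 2 to 4; limma adjusted p = 0.989). Tgif1, a transcriptional corepressor of SMADs, and Trim33, a ubiquitin ligase that binds SMAD4, were slightly lower in all 4 expansions, with alpha4-low means of -0.35 and -0.30 (limma adjusted p = 0.99 and 0.989).

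Ligands and their activators were mostly too dim: 5 of 21 were tested, with Bmp7 lower and Itgav higher by over 1 log2 unit in pair 1 and a median of 0.26. Bmp7 was below background in expansion 1, at 24.1 against 57.5, at least 1.23-fold lower. Itgb8, the beta8 integrin chain that with alpha v activates latent TGF-beta, differed by 0.26 in pair 1 and -0.40 ± 0.47 (SD, n = 3) in the alpha4-low pairs (limma adjusted p = 0.991). Of 10 extracellular antagonists 3 were tested, and Dcn, the proteoglycan decorin, was higher in expansion 1, at 414 against 63.8. Dcn is also in the list of stromal markers, whose summed signal was 703 in expansion 1, 214 to 688 in the polyclonal samples and 338 to 2720 in the alpha4-low expansions; the part of such cells in the Dcn value was not tested.

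Transcriptional targets showed no common direction. Of 20 targets 13 were tested, 2 were lower by over 1 log2 unit in pair 1 (Cdh1 and Pmepa1), 1 was higher (Id3), and the median was 0.33. Id3, a classical BMP target, read 121 in expansion 1 and 39.5 in its partner, the latter below background, and it was lower in the alpha4-low expansions, at -1.68, -2.27 and -0.15 (mean -1.37 ± 1.09, SD, n = 3; limma adjusted p = 0.966). Expansions 2 and 3, at 37.9 and 18.5, were below background too, so the size of these differences is not exact. Cdh1, which encodes E-cadherin, read 77.6 and 543 in pair 1, with a difference of similar size in pair 3 (-2.15). Klf10, an early TGF-beta response gene, was higher in all 4 expansions, at 0.84, 0.71, 0.21 and 0.09 (limma adjusted p = 0.989 for the alpha4-low pairs). Cdkn1a, the cell cycle inhibitor p21, was also higher in all 4, at 0.83, 1.40, 1.34 and 0.28 (limma adjusted p = 0.966). Junb, a member of the AP-1 family, was dim, at 74.6 against 34.9 in pair 1 and -0.63 ± 0.56 (SD, n = 3) in the alpha4-low pairs.

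Of 9 genes that TGF-beta is known to lower in CD8 T cells, 9 were tested. In pair 1 their median was 0.75, with 3 higher by over 1 log2 unit and 0 lower; in the alpha4-low pairs 9 of 9 means were negative, with a median of -0.62, against 5435 of 10407 genes and a median of -0.03 on the whole array. Means close to 0 are among the 9 (Gzmb -0.02, Fasl -0.04), and the other tested Fasl probe set had a mean of 0.09. Only Klrg1 and Myc were lower in the expansion in all 3 alpha4-low pairs, and the other genes of the list changed direction between pairs. Klrg1, an inhibitory receptor of terminally differentiated effector cells, read 3668 in expansion 1 and 359 in its partner, and 192, 142 and 152 in expansions 2 to 4 against 679, 1421 and 1168. Its alpha4-low mean was -2.66 ± 0.77 (SD, n = 3; limma adjusted p = 0.0615), and the alpha4-low minus alpha4-high difference was -5.99. Klrg1 passed the limma threshold in that contrast, but the gene lists were chosen with earlier results of these data known. The call therefore describes the gene and supports nothing. The alpha4-high arm is expansion 1 alone and adds no spread. The variance was that of the 3 alpha4-low pairs, moderated by limma toward an intensity trend over all tested probe sets. The lone pair is assumed to vary in the same way, and the call compares these samples rather than the subclasses. That call was lost with a pseudocount of 1, with quantile normalization, without the intensity trend and with probe sets averaged. Klrg1 was the only 1 of the 55 genes to pass in that contrast, where 12 of 22518 probe sets passed (0.0533%); in the alpha4-low and all-pairs comparisons 0 of the 55 passed in limma, with 5 and 3 at an unadjusted p under 0.05, beside 841 and 515 of 10407 genes on the whole array.

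The granzyme genes Gzma and Gzmb, which encode proteases of cytotoxic granules, were higher in expansion 1 than in its partner, at 5618 against 444 and 4796 against 907. In the alpha4-low pairs they had no common direction, from -3.70 to 1.97 for Gzma and from -0.97 to 1.28 for Gzmb. Gzma is also in the list of NK cell markers, whose summed signal was 11278 in expansion 1, 2950 to 33211 in the polyclonal samples and 365 to 7544 in the alpha4-low expansions. The partner of expansion 1 had 3507, and 3 of the 4 NK markers on the array were above background in expansion 1, all but Ncr1, which was above it on no array. The part of NK cells in the Gzma and Gzmb values was not tested. Myc, which TGF-beta represses in many cells, was lower in all 4 expansions, at -0.44, -0.61, -0.20 and -0.59 (limma adjusted p = 0.989 for the alpha4-low pairs).

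**Figure D3:**
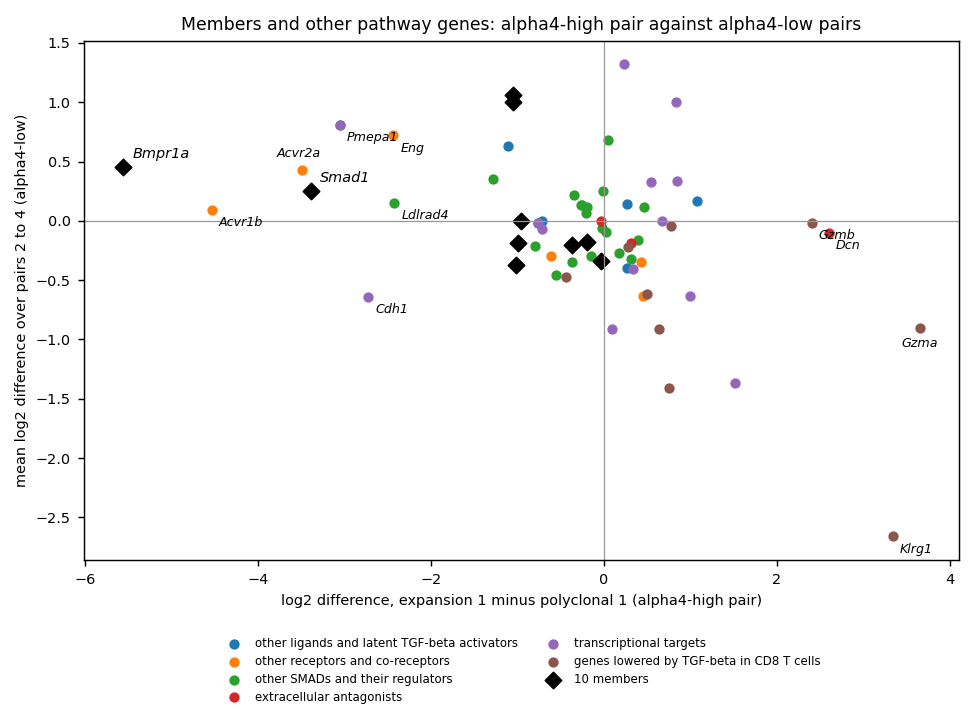
Log2 difference between expansion and polyclonal sample in the alpha4-high pair (horizontal) against the mean over the 3 alpha4-low pairs (vertical) for the 10 genes (black diamonds) and the 55 other tested pathway genes (circles coloured by list), brightest tested probe set per gene; Skil and Pmepa1 are in 2 lists. Bmpr1a, Acvr1b, Acvr2a, Smad1 and Pmepa1 lie far to the left with alpha4-low means between 0.09 and 0.81, and Klrg1 lies alone at the lower right.

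The calls depend on which pairs are fitted. Leaving out a pair also raised the number of probe sets called over the whole array in both comparisons below. The larger of these counts are given at the end. Fits without an alpha4-low pair rest on fewer animals, and the lists were chosen with earlier results of these data known. These calls therefore describe the genes and support nothing. In the alpha4-low minus alpha4-high contrast the calls among the 55 genes were Acvr1b and Klrg1 without pair 2, these and also Acvr2a, Gzma, Gzmb and Pmepa1 without pair 3, and Acvr1b, Acvr2a, Gzma and Klrg1 without pair 4. In the alpha4-low comparison Klrg1 passed when pair 1, 2, 3 or 4 was left out, Ppm1a, a phosphatase of receptor SMADs, without pair 3, and Gzma without pair 4. Over the whole array that comparison called 20, 18, 133 and 148 probe sets without pair 1, 2, 3 and 4, against 12 with all pairs.

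The genes whose values over the 8 arrays were most like those of Bmpr1a were Yes1, a SRC family kinase (Pearson's r = 0.99), Zbtb10 (0.985), Satb1, a chromatin organiser of T cells (0.98), Rreb1 (0.975) and Qk, an RNA-binding protein (0.973), among 10406 genes ranked. Yes1 read 44.9 in expansion 1 and 1199 in its partner, with 620.2 to 2049 elsewhere. Satb1 read 384 and 12442, with 4575 to 16418 elsewhere. Genes were ranked by their best tested probe set. Smad1 ranked 17 at 0.957, Pmepa1 35 at 0.939, Smad2 51 at 0.93 (its brightest probe set had -0.372) and Acvr1b 84 at 0.911. These values rest on expansion 1 to different degrees. Over the other 7 arrays r was 0.947 for Yes1, 0.927 for Zbtb10, 0.824 for Satb1, 0.676 for Smad1 and -0.259 for Acvr1b. The arrays share mice in pairs and a common scaling, and the r values are given as a description.

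Markers of other cells were also read beside the low values of expansion 1. Macrophage and monocyte markers summed to 3233 in expansion 1, against 820.4 to 1849 in the polyclonal samples and 1561 to 2260 in the alpha4-low expansions, so expansion 1 was the highest array for that list. B cell markers summed to 3654, within the polyclonal range of 2184 to 4503, dendritic cell markers to 1691 (polyclonal 1006 to 1924), platelet markers to 406 (polyclonal 184 to 498), erythroid markers to 78 (polyclonal 17.1 to 95.6) and CD4 T cell markers to 300.2 (polyclonal 181 to 419). CD8 T cell markers summed to 43412 in expansion 1, within the 31873 to 48432 of the polyclonal samples. The part of other cells in the Bmpr1a and Smad1 values was not tested, and in a bulk sample fewer cells of a type and less RNA per cell cannot be told apart.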

How the data were processed

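RNA of 8 sorted CD8 T cell samples was amplified through 2 rounds and biotin-labelled, per the labels' protocols. The deposited table holds a linear intensity per probe set, a MAS5 value computed by the authors (per the submitters' processing notes, without a version), and no detection calls. Each array has a 2% trimmed mean of 500 in the deposited values, so no scaling was added, and a difference in total RNA per cell is not visible. Amplified RNA is biased toward 3′ ends, so probe sets of a gene can disagree.

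The 64 control probe sets and those at or below the median of mean log2(value + 5), a signal of about 45.3, were left out, which kept 22518. Folds on this scale understate differences of dim probe sets. Tests used lmFit and eBayes (limma 3.58.1, R 4.3.3) with an intensity trend (two-sided, Benjamini-Hochberg over all probe sets, threshold 0.05) with mouse as a fixed block. The first model had separate alpha4-low and alpha4-high coefficients (2 residual degrees of freedom), the second a single expansion coefficient (3). Pairing comes from the animal, as the design text states. Deviations from group means correlated at 0.374, 0.0771, 0.214 and 0.338 between the samples of mice 1 to 4, and the closest polyclonal sample was another mouse's for expansion 2 (sample 4, 0.131) and expansion 3 (sample 2, 0.301). The array of expansion 4 has a scan record unlike the others, and the effects of scan and sample there cannot be told apart. The models were tested on simulated data.

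Gene symbols came from the platform annotation: 34958 probe sets have 1 symbol, 932 several and 9211 none, and probe sets with several name no gene here. A gene is represented by its brightest probe set. Promoters came from a RefSeq table that holds 8 of the 10 genes. The genes, the pathway and marker lists and the background level were chosen with earlier results of these data known. Named by rule were all 10 genes, up to 4 genes per pathway list with the largest alpha4-low mean among those of the same sign in all 3 pairs, and the 5 genes most like Bmpr1a; others are named as the members of small counts. The numbering of the subclasses in the labels is not uniform, and each sample's own description was followed. Alternatives covered the pseudocount, filter, scaling, background, variance prior, replicate block, purity, averaging of probe sets and omission of each pair.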

Additional observations from a re-analysis of the deposited data

Results flagged for a closer look

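Several probe sets moved in the opposite direction in the alpha4-high pair from all 3 alpha4-low pairs. No test of this difference is given for the 10 genes, because it was known when they were chosen. The share of all tested probe sets that did the same is not given, so the list describes these probe sets and supports nothing. In pair 1 the Bmpr1a probe sets 1425494_s_at, 1425493_at and 1451729_at differed by -3.64, -3.44 and -3.25 on the log2 scale, and all 3 were higher in the expansion in pairs 2, 3 and 4. The Smad1 probe sets 1448208_at and 1459843_s_at differed by -3.39 and -3.21, and Smad7 1443771_x_at by -1.05, with positive differences in the other pairs. The brightest Bmpr1a probe set, 1425492_at, is not among them because pair 3 was also negative, at -0.51. Tgfbr2 1425444_a_at was the reverse case and small, at 0.12 in pair 1 with negative values elsewhere.

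Klrg1 was higher in expansion 1 and lower in 3 of 3 alpha4-low expansions than in their partners. Its alpha4-low minus alpha4-high difference was -5.99. It passed the limma threshold in that contrast, but the gene lists were chosen with earlier results of these data known. The call therefore describes Klrg1 and supports nothing. The alpha4-high arm is 1 expansion and adds no spread of its own, and the call was lost under 4 alternatives: a pseudocount of 1, quantile normalization, no intensity trend and averaged probe sets. No value of the 10 genes among the 4 polyclonal samples lay far enough from the rest to be singled out by Dixon's test, which chance would do in about 1 in 20 groups.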

How the results depend on the processing

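Alternatives numbered 14, and 0 probe sets of the 10 genes passed the threshold in the alpha4-low pairs or over all pairs under any of them. Among 138 alpha4-low values of single genes, 1 per gene and setting, the lowest limma adjusted p was 0.611. The alpha4-low minus alpha4-high value stayed positive for Bmpr1a (3.90 to 6.49) and Smad1 (2.91 to 3.76) in the 13 settings that keep pair 1; it was 3.898 for Bmpr1a with probe sets averaged and 2.909 for Smad1 with no replicate block. With purity as a covariate the alpha4-low minus alpha4-high value changed sign for Smad3 (from 0.801 to -0.495) and Tgfb1 (from -0.301 to 2.037). The other genes kept their sign there. Over all settings that keep pair 1, this value was below 0 for Tgfbr2 in 5 of 13 (lowest -0.43). For Bmpr2 it was -0.256 without pair 2, and for Tgfb1 it was above 0 in 4 of 12 settings. In pair 1, 2 of the 10 genes in place of 5 were lower by over 1 log2 unit with a pseudocount of 32. Of 138 alpha4-low values of single genes 11 changed sign, none of them called. With no replicate block Tgfbr1 was -0.060. With purity as a covariate Tgfbr2 was 0.259, Tgfbr3 0.190 and Tgfb1 1.391. With 1 pair left out, Bmpr1a ranged from -0.054 to 0.931, Bmpr2 from -0.630 to 0.161, Tgfbr1 from -0.541 to 0.576, Tgfbr2 from -0.371 to 0.137, Smad3 from -0.636 to 0.217 and Tgfb1 from -1.439 to 0.654. Bmpr1a was below 0 without pair 2 and Smad3 above 0 without pair 4.

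Of the 55 other pathway genes, the alpha4-low minus alpha4-high contrast called 1. It called 0 with a pseudocount of 1, quantile normalization, no intensity trend or probe sets averaged, and 2 (Acvr1b, Klrg1) with the filter at the 75th percentile or no replicate block; with 1 pair left out it called 2 to 6. The alpha4-low pairs called 0, and 1 (Klrg1) with a pseudocount of 32, no filter, the filter at the 75th percentile or signals raised to background; with 1 pair left out they called 1 to 2. All pairs called 0, and 0 to 1 with 1 pair left out.

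Over the whole array the alpha4-low count of 12 was 0 with no replicate block, no intensity trend or probe sets averaged, 6 with quantile normalization, 22 at the 75th percentile filter, 26 with signals raised to background, and 20, 133 and 148 without pair 1, 3 and 4. The count of 12 in the contrast between subclasses was 0 with a pseudocount of 1, quantile normalization, no intensity trend or probe sets averaged. It was 29 with a pseudocount of 32, 25 with no filter, 63 at the 75th percentile filter, 66 with signals raised to background, 143 with no replicate block, and 64, 266 and 215 without pair 2, 3 and 4. The cause was not tested. All pairs called 20 probe sets without pair 1. Acvr1, Tgfb1 and all 5 tested Bmpr1a probe sets in expansion 1 lie near or below background, which limits the size of their differences. The brightest Bmpr1a probe set read 61.1 there, against a background of 46.6.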
